A study of Rattus norvegicus with 4 samples.

Results

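The circadian genes described are 10 in number: the period genes Per1, Per2 and Per3, the cryptochrome genes Cry1 and Cry2, Clock, the nuclear receptor genes Nr1d1 and Nr1d2, the output factor gene Dbp, and Noct, which encodes nocturnin. They were chosen by name as core clock genes and nocturnin, with the response of Per1 and Noct to aldosterone in these arrays already known. Of the 10, 9 had an array row that carries this gene symbol alone, among 13215 named genes. Nr1d2 had no such row and was not analysed here. Each of the 9 had 1 row, so that no choice between rows was needed.

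The arrays measured surface colonocytes, which line the gut and absorb salt and water, from the distal colon of 4 Wistar rats aged 12 weeks. All 4 rats had lost both adrenal glands 4 days before and drank 0.9% NaCl, so that the vehicle rats are a hormone-depleted control and not intact animals. The 2 rats of the aldosterone group received aldosterone by injection (50 µg per 100 g of body weight) and by an osmotic pump (10 µg/kg per hour), and were killed after 2 h. The 2 rats of the vehicle group received the vehicle by injection and a pump that delivered polyethylene glycol. The cells then came off the inverted colon during 40 min of shaking, with 100 nM aldosterone in the solution for the treated group. The rats lived in a cycle of 12 h of light and 12 h of dark, and the hour at which each was killed is not given in the sources used here.

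The circadian clock is a feedback loop of transcription that runs in nearly every cell of the body, the colon epithelium included. The factors CLOCK (or its relative NPAS2) and BMAL1 bind DNA motifs called E-boxes and switch on the Per and Cry genes, whose proteins then inhibit them. In a further loop the receptors encoded by Nr1d1 and Nr1d2 repress Bmal1 through ROR elements, and factors such as DBP and TEF drive genes through D-boxes. Transcripts of Bmal1 and of Dbp, Per2 and Per3 therefore peak at opposite times of day in peripheral tissues. Adrenal steroids are known to set the phase of peripheral clocks, and Per1 is a known direct target of the glucocorticoid receptor. Nocturnin is a clock-controlled enzyme of the family of mRNA deadenylases that removes a phosphate from NADP(H).

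Values are the deposited log2 expression values, 1 per row and rat, and differences are aldosterone minus vehicle on that scale. Levels of different genes are not set against each other, since each row has its own probes. The 9 genes lay above the level at which most rows crowd: their vehicle means exceeded 2.35, the median of all row means, and their means over the 4 rats were all 4 or more. Of the markers listed for surface epithelium, Krt20 read 11.14 to 11.26 in the 4 rats and Epcam, which is not particular to the surface, 11.65 to 11.81. The 3 measured crypt and proliferation markers lay between 1.90 and 2.82. Since each row has its own probes, such levels are only a rough guide to the cells present. Of the 9 measured surface markers, Slc9a3 stood apart in aldosterone rat 1, at 8.39 against 2.48 to 3.99 in the other rats. The 7 measured immune markers lay between 1.80 and 4.19, the 5 stromal and muscle markers between 1.82 and 3.35, and the 5 enteroendocrine markers between 1.84 and 2.54. Of the 2 measured goblet cell markers, Agr2 read 7.69 to 8.52, and Tff3 was lowest in aldosterone rat 1, at 9.44 against 10.74 to 11.30. In such bulk samples a lower share of cells of a type and less RNA per cell cannot be told apart.

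Of the 9 genes, Noct and Per1 stood higher in both aldosterone rats than in both vehicle rats. Noct (row 7193902) read 3.90 and 4.36 in the vehicle rats, against 6.36 and 6.26 in the aldosterone rats. The groups lay 1.90 apart at their nearest values, and the aldosterone rats differed from each other by only 0.097. The difference was 2.18 ± 0.19 (SE, n = 2 per group; 95% interval 1.66 to 2.71), or 4.54-fold. Per1 (row 7068987), a repressor of the loop, read 4.53 and 4.95 in the vehicle rats, against 5.95 and 6.23 in the aldosterone rats. Its groups did not overlap either, and its difference was 1.35 ± 0.20 (SE; 95% interval 0.80 to 1.90), or 2.54-fold. Since these genes were chosen for this contrast, the values are a description and carry no test. A difference of 1 or more in this direction was found in 0.567% of all rows and in 1.87% of the rows with a mean of 4 or more. Groups 1 or more apart at their nearest values, as in Noct but not in Per1 (0.997), were found in 0.191% of all rows and 0.644% of those with a mean of 4 or more.

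**Figure D1:**
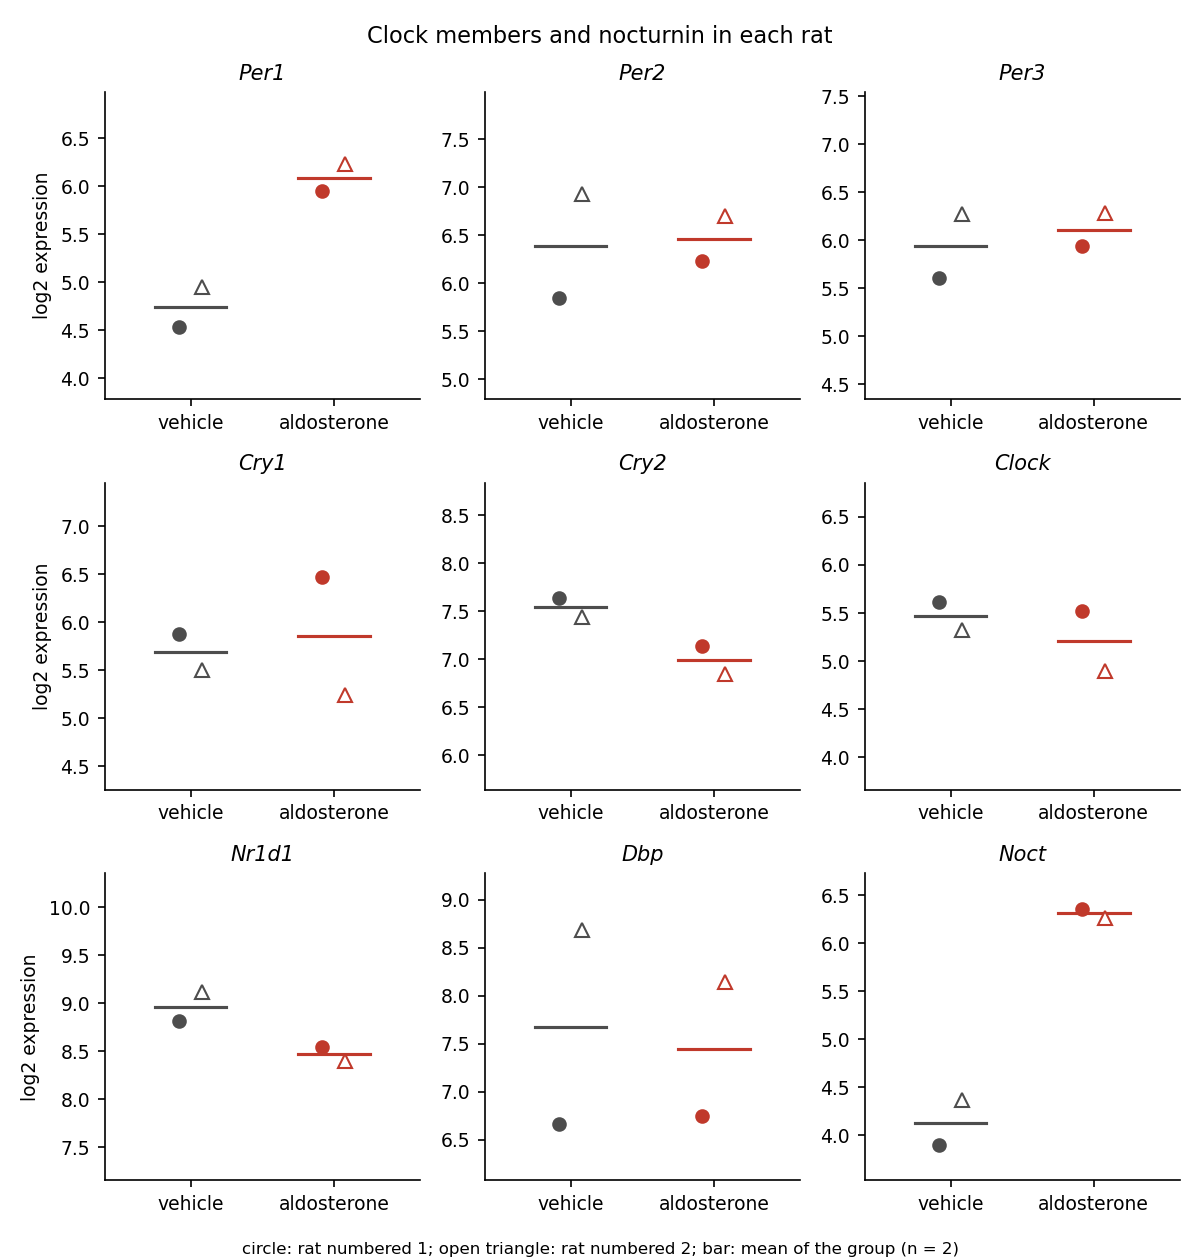
Log2 expression (vertical axis, each panel spanning the same range) of the 9 measured genes in the vehicle and aldosterone groups; circles are the rats numbered 1, open triangles those numbered 2 and bars the mean of 2 rats. Noct and Per1 stand higher in both aldosterone rats, Cry2 and Nr1d1 lower, and in Dbp the circles lie near 6.7 and the triangles above 8 in both groups.

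In the other members of the Per family the groups overlapped. Per2 (row 7365259) read 5.85 and 6.93 in the vehicle rats, against 6.23 and 6.70 in the aldosterone rats. Both aldosterone values thus fell between the vehicle values, and the difference was 0.072 with a 95% interval from -1.09 to 1.24. Per3 (row 7293385) read 5.61 and 6.28 against 5.94 and 6.28, a difference of 0.17 with an interval from -0.60 to 0.93. These intervals are wide enough to hold differences in either direction. The vehicle rats alone differed by 1.08 in Per2.

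The cryptochrome genes, whose proteins join PER proteins in the repressor complex, had groups apart in Cry2 and overlapping in Cry1. Cry2 (row 7241852) read 7.64 and 7.45 in the vehicle rats, against 7.14 and 6.84 in the aldosterone rats. Its groups did not overlap, with a difference of -0.55 ± 0.16 (SE) that corresponds to a 1.47-fold lower level. Cry1 (row 7313174) read 5.88 and 5.50 against 6.47 and 5.24, so that the aldosterone rats enclosed the vehicle rats. Its difference was 0.16 with an interval from -1.10 to 1.43. It was 0.78 without aldosterone rat 2 and -0.45 without aldosterone rat 1.

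Among the remaining genes, only Nr1d1 had groups that did not overlap. Nr1d1 (row 7082318), which encodes the repressor REV-ERB alpha, read 8.81 and 9.11 in the vehicle rats, against 8.54 and 8.40 in the aldosterone rats. The difference was -0.49 ± 0.15 (SE), 1.41-fold lower. Clock (row 7117864), the activator, read 5.62 and 5.33 against 5.52 and 4.90, with a difference of -0.26 and an interval from -0.97 to 0.45. Dbp (row 7031596), an output factor that binds D-boxes, read 6.67 and 8.68 in the vehicle rats, against 6.74 and 8.15 in the aldosterone rats. Its difference of -0.23 had an interval from -2.60 to 2.14, the widest of the 9.

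Set side by side, Per1 and Noct lay apart from the other 7 genes, whose differences ran from -0.55 to 0.17 with a median of -0.23. The median difference was 0.024 over all rows and -0.041 over the 4815 rows whose mean reached 4. Groups did not overlap in 4 of the 9 genes, 2 higher and 2 lower with aldosterone. Over all rows that share was 27.8%, made of 16.7% higher and 11.1% lower. Over the 4815 rows it was 32.1%, made of 13.4% higher and 18.7% lower. With 2 rats against 2, an exact two-sided permutation test of a single gene cannot go below p = 0.333. Limma with a constant prior called 0 of the 9 genes at an adjusted p of 0.05, as it called 0% of the 19403 rows. At an unadjusted p under 0.05 it held 4 of the 9, Per1, Noct, Cry2 and Nr1d1, and 4.53% of all rows. A prior that follows the level called 21 rows (0.108%), Noct among them. Nothing is read from these counts, since the genes were named with the contrast known.

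**Figure D2:**
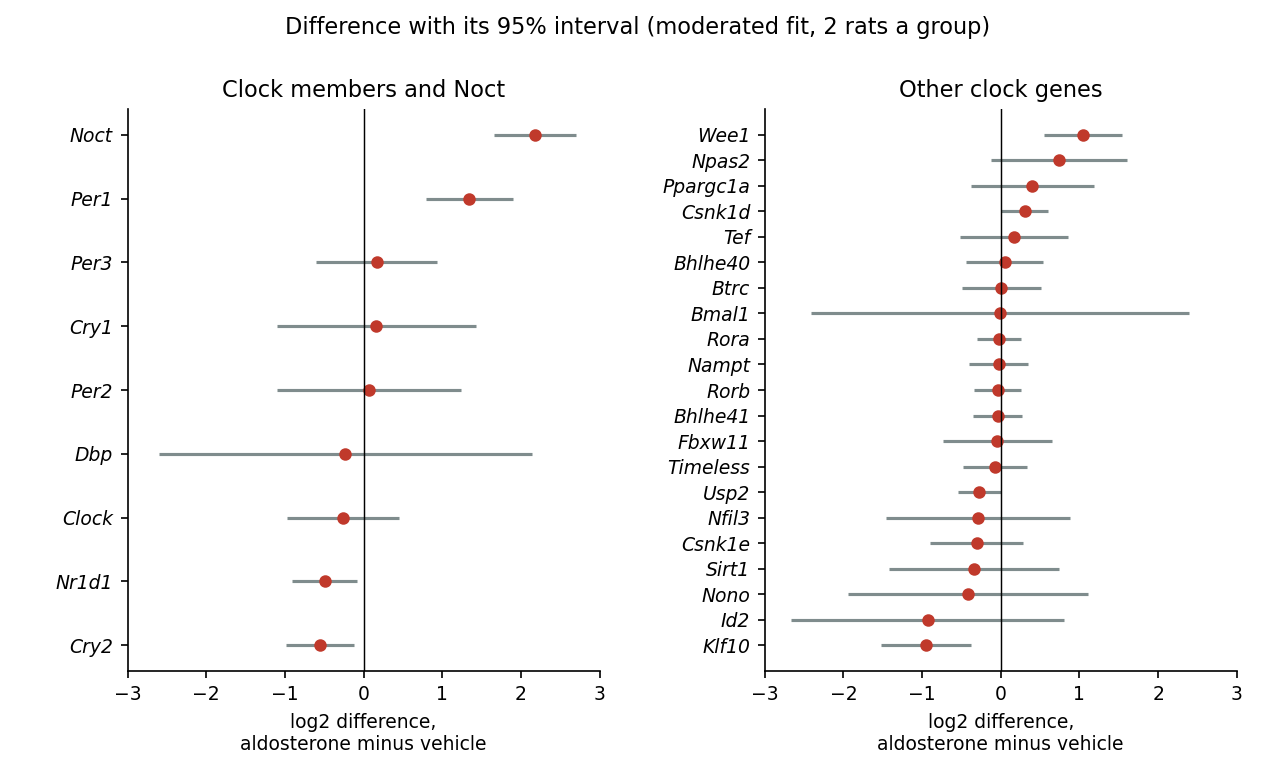
Log2 difference, aldosterone minus vehicle (horizontal axis), with the 95% interval of the moderated fit for the 9 genes (left) and for the 21 other measured clock genes (right). Noct and Per1 lie at 2.18 and 1.35 with intervals above 0, and Dbp and Bmal1 have the widest intervals of their panels, Dbp from -2.60 to 2.14 and Bmal1 from -2.41 to 2.39.

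The stretches just before the transcription start of Noct and Per1 are shown because these were the genes that differed most. They come from RefSeq on the GRCr8 rat assembly and cover the last 100 bases before the annotated start. Noct lies on the plus strand of chromosome 2 (chr2:137421974-137422073) and Per1 on the plus strand of chromosome 10 (chr10:54304276-54304375).
Noct: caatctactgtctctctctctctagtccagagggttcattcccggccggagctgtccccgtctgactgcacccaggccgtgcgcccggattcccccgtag
Per1: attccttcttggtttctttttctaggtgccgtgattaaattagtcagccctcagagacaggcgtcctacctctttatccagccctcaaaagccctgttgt
Both strands of the 250 bases before the start were searched for 6 motifs. They were the E-box CACGTG, its variant CACGTT, the D-box TTATGTAA, the ROR element bound by REV-ERB receptors, the cAMP response element TGACGTCA and the palindromic steroid receptor element. None of these motifs contains another. No letters of these motifs stood in the windows of Noct and Per1, hence the absence of capitals. That says only that these letters are not in these 250 bases. Among all 33469 windows of RefSeq starts, 5.59% held the E-box, 4.07% its variant, 0.828% the D-box, 0.0359% the ROR element, 1.59% the cAMP response element and 0.012% the steroid receptor element.

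Several of the clock genes whose groups overlapped differed between the rats of a group in the same direction in both groups. Where groups overlap, the mean rat difference, sign aside, cannot be smaller than the treatment difference. The relative size of these differences therefore follows from the choice of genes, and nothing is read from it. Dbp stood 2.02 higher in vehicle rat 2 than in vehicle rat 1, and 1.40 higher in aldosterone rat 2 than in aldosterone rat 1. Bmal1 (row 7035625), the partner of CLOCK, did the opposite. It read 8.03 and 6.41 in the vehicle rats, against 8.15 and 6.27 in the aldosterone rats, so that the rats numbered 2 lay lower by 1.62 and 1.89. Its treatment difference was -0.010 with an interval from -2.41 to 2.39. Per2 stood higher in the rats numbered 2 by 1.08 and 0.47, and Per3 by 0.67 and 0.34. Clock stood lower in them by 0.29 and 0.62, and Cry1 by 0.38 and 1.23. Tef, another D-box factor gene, read 4.92 and 5.45 in the vehicle rats, against 5.16 and 5.55 in the aldosterone rats, the direction of Dbp.

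In all, 5 of the 9 genes had both rats numbered 2 on the same side of both rats numbered 1, with Per2, Per3 and Dbp higher and Cry1 and Clock lower. The same held for 12 of the 21 other clock genes measured, 4 higher and 8 lower (2 and 6 after quantile normalization, 2 and 10 with arrays centred on their medians). These shares are read against a background of 40.1% of the rows with a mean of 4 or more, made of 11.8% higher and 28.4% lower, so the count alone does not set the clock genes apart. The 9 genes all reach that mean, but some of the 21 do not, among them Rora, Bhlhe41 and Nfil3, which were counted. The background over all rows, most of them near the floor, was 46.7%, made of 34.2% higher and 12.5% lower. The size of the split was rarer. A split of 1 or more in both groups was found in 0.291% of these rows with the rats numbered 2 higher, Dbp included, and in 0.353% with them lower, Bmal1 included. Over all rows these shares were 0.103% and 0.0928%. Of the 4815 rows, 8 (0.166%), Dbp itself among them, had a common split at least as large as that of Dbp, and 5 (0.104%), Bmal1 itself among them, one at least as large as that of Bmal1. The split of Per2 was reached by 7.37% of rows, that of Tef by 10.5%, that of Cry1 by 11.3%, that of Per3 by 13.6% and that of Clock by 17.4%. The split was seen in the data and is a description with no test. The labels number the rats within each group and do not say that rats of the same number shared a litter or a day.

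**Figure D3:**
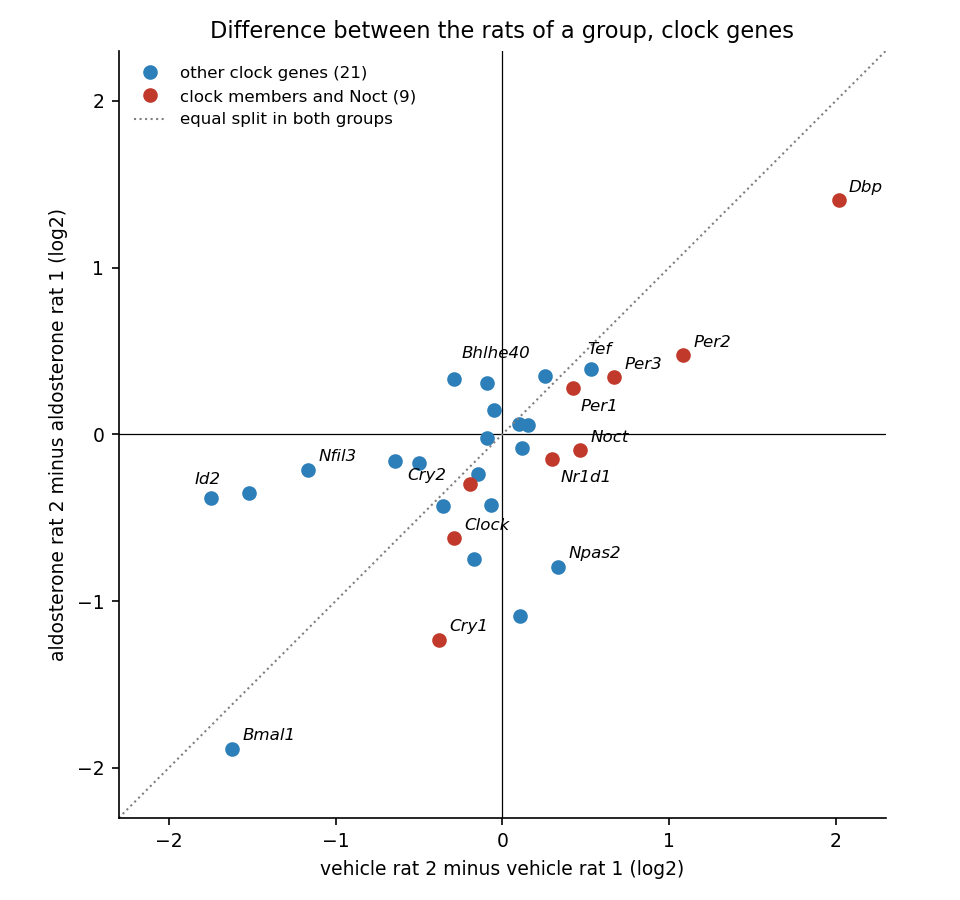
Difference between the rats of a group, rat 2 minus rat 1, in the vehicle group (horizontal axis) and the aldosterone group (vertical axis), both in log2 units, for the 9 genes (red) and 21 other clock genes (blue), with the main genes of the text labelled and the dotted line marking an equal split. Dbp at 2.02 and 1.40 and Bmal1 at -1.62 and -1.89 lie at opposite ends, with Per1 at 0.42 and 0.28 and Noct at 0.46 and -0.097.

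A gene whose treatment groups do not overlap cannot have both rats numbered 2 on the same side of both rats numbered 1, so Per1, Noct, Cry2 and Nr1d1 could not be counted in this split. Per1 stood higher in the rats numbered 2 by 0.42 and 0.28, and a common split of that size was reached by 18.7% of rows, close to the share for Clock. Noct stood 0.46 higher in vehicle rat 2 and 0.097 lower in aldosterone rat 2. Cry2 lay lower in the rats numbered 2 by 0.19 and 0.30. Nr1d1 lay 0.30 higher in vehicle rat 2 and 0.15 lower in aldosterone rat 2. The 4 genes whose groups did not overlap by treatment thus had rat differences between 0.097 and 0.46. Other values moved with the rat number as well. The array medians were 2.22 (vehicle rat 1) and 2.33 (aldosterone rat 1) for the rats numbered 1, and 2.43 and 2.44 for those numbered 2. The 5 measured stromal and muscle markers averaged 2.49 and 2.50 in the rats numbered 1, and 2.69 in each rat numbered 2. These markers lay near the floor, and their averages are not adjusted for the array medians, which moved in the same direction. Des alone of them went the other way in the vehicle rats (2.87 and 2.69). The part of the array medians and of these markers in the split was not tested. With arrays centred on their medians or quantile-normalized, the same 5 genes kept the split.

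For the genes on opposite sides of the split, the windows in which a motif was found are shown for Per2, Bmal1 and Tef, again from RefSeq on GRCr8, with the matching letters in capitals. Windows were found for 9 of the 10 genes, and for Bmal1 and Tef, with Cry1 missing. Per2 lies on the minus strand (chr9:99497044-99497193), with a D-box that begins 192 bases before the start and the E-box variant that begins 62 bases before it. Bmal1 lies on the plus strand (chr1:176766268-176766327) and held ROR element letters beginning 56 and 20 bases before the start. Tef lies on the plus strand (chr7:115206612-115206671) with an E-box that begins 198 bases before the start.
Per2: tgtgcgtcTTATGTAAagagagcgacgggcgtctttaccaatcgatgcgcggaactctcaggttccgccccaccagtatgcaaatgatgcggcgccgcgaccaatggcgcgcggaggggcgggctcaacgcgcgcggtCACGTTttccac
Bmal1: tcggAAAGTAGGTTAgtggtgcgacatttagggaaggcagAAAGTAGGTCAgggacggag
Tef: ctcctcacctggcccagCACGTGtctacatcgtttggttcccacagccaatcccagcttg
The E-box variant, held by 4.07% of all windows, stood in Nr1d1 and Cry2 on the other strand, read as AACGTG. Per2, whose groups overlapped, held it too, and the repressor gene Per1 did not. A link between the variant and the treatment differences was not tested. The variant began 174 bases before the first listed start of Nr1d1 (minus strand, chr10:84231953-84232012) and 212 bases before that of Cry2 (minus strand, chr3:98860608-98860667).
Nr1d1: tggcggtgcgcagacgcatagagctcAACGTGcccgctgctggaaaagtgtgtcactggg
Cry2: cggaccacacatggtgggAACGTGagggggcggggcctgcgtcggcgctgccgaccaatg
A further start of Nr1d1 held the E-box itself 191 bases upstream. The windows of Per3, Clock, Dbp and Nr1d2 held none of the 6 motifs. Only Bmal1, of the genes looked up, held the ROR element, which 12 of the 33469 windows hold. The form of this element that was searched left a single letter free, and the Bmal1 stretches differ only at that letter. Looser forms were not searched, so the rarity of the element and its absence from the other genes hold for this narrow form only. A match describes the letters and is not evidence of a bound site.

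Of 29 other clock genes listed, 21 were measured. Limma with a constant prior called 0 of them, higher or lower, at an adjusted p of 0.05 over all rows. The same fit called 0% of all rows. At an unadjusted p under 0.05 there were 3 of the 21, Wee1, Klf10 and Csnk1d, against 4.53% of all rows. The intensity trend called 0 of them, against 0.108% of all rows. The groups did not overlap in 3 of the 21 with aldosterone higher and in 2 with it lower, against 16.7% and 11.1% of all rows. Nothing is read from these counts, as the genes were listed with earlier results of these data known. The median difference of the 21 was -0.040, with 7 positive and 14 negative. Wee1, a cell cycle kinase gene known to be driven by CLOCK and BMAL1, read 4.86 and 4.79 in the vehicle rats, against 6.09 and 5.66 in the aldosterone rats. Its 2.06-fold difference (1.05 ± 0.18, SE) had a limma adjusted p of 0.711, in a fit that called 0% of all rows. Klf10, a Krüppel-like factor gene under clock control, read 7.92 and 7.42 against 6.80 and 6.63, 1.94-fold lower (limma adjusted p = 0.815). Npas2, which can stand in for CLOCK, read 6.69 and 7.02 against 7.99 and 7.20. Its groups did not overlap, with aldosterone rat 2 only 0.18 above vehicle rat 2, and the interval of the difference ran from -0.12 to 1.61. Csnk1d, whose kinase marks PER proteins for breakdown, read 7.77 and 7.73 against 7.98 and 8.13, a difference of 0.31. Csnk1e, its relative, had a difference of -0.30 with an interval from -0.90 to 0.29.

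The clock-controlled repressors and the deubiquitinase among these genes gave small or uneven differences. Bhlhe40, an E-box repressor gene, read 9.61 and 9.86 in the vehicle rats, against 9.61 and 9.96 in the aldosterone rats. Its relative Bhlhe41 stayed between 2.38 and 2.54, near the median of all rows. Nfil3, a D-box repressor gene, read 3.91 and 2.75 against 3.14 and 2.93, so that vehicle rat 1 stood apart. Id2, an inhibitor of helix-loop-helix factors, read 8.30 and 6.55 against 6.69 and 6.30, again with vehicle rat 1 apart. Its difference was -0.93 with an interval from -2.66 to 0.81. Usp2, whose enzyme acts on clock proteins, read 4.78 and 4.70 against 4.48 and 4.46, a difference of -0.27. Hlf and Ciart had no row of their own and were not analysed here.

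**Figure D4:**
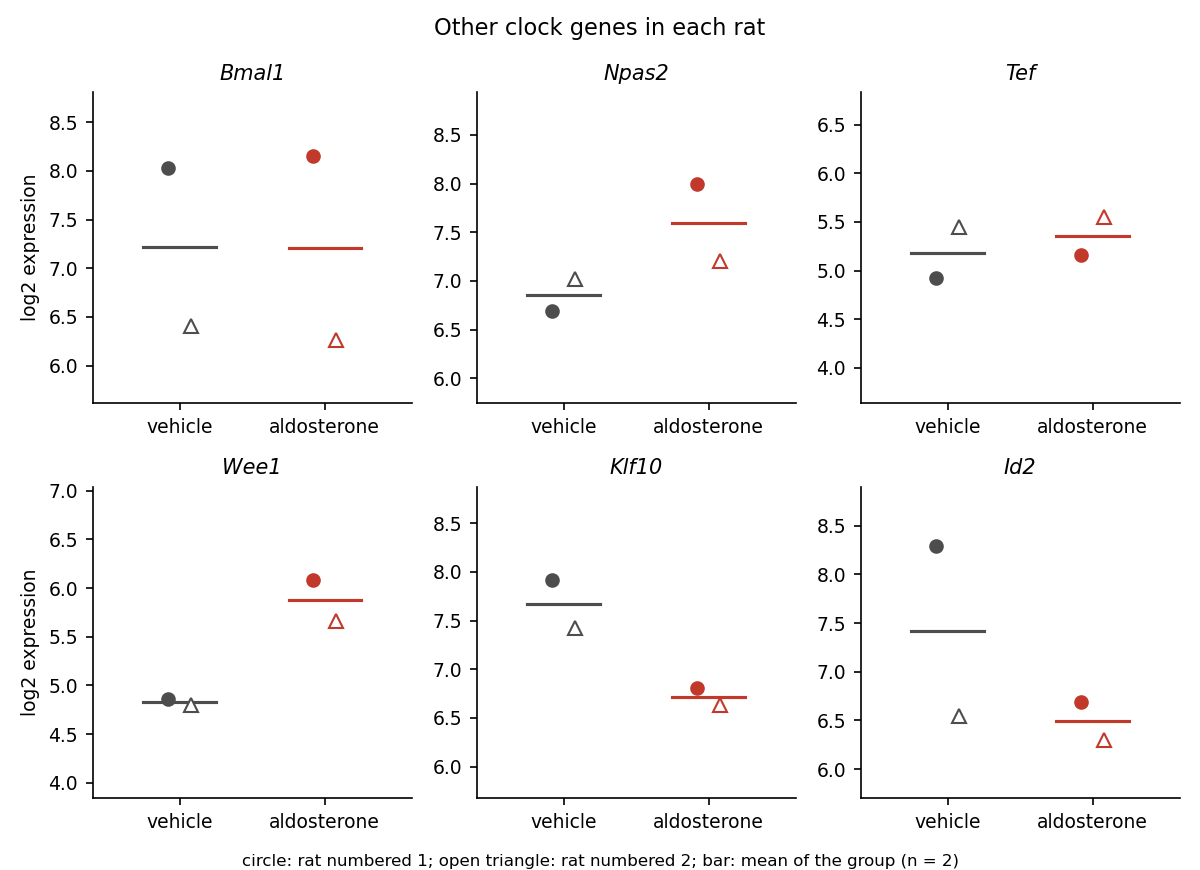
Log2 expression (vertical axis, each panel spanning the same range) of 6 other clock genes in the vehicle and aldosterone groups; circles are the rats numbered 1, open triangles those numbered 2 and bars the mean of 2 rats. Bmal1 splits by rat number in both groups (8.03 and 8.15 against 6.41 and 6.27), whereas Wee1 and Klf10 separate by treatment.

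The genes related to Noct had smaller differences than Noct. Since Noct was chosen with its response known, nothing is read from that order. Of 14 listed, 13 were measured: enzymes of the same fold, other deadenylases and their adaptors, and the kinases that make NADP. Limma called 0 of the 13 at an adjusted p of 0.05 with either prior, against 0% of all rows (constant) and 0.108% (intensity trend). Of the 13, only 1, Tob2, was under an unadjusted p of 0.05, against 4.53% of all rows. This list as well was drawn up with earlier results known, and nothing is read from these counts. The differences of the 13 ran from -0.45 to 0.12 with a median of -0.00030. Pde12, a mitochondrial enzyme of the same fold, read 4.84 and 4.42 in the vehicle rats, against 4.60 and 4.78 in the aldosterone rats. Angel1, of the same fold as well, had a difference of 0.015 with an interval from -0.40 to 0.43. Parn, a poly(A)-specific ribonuclease gene, differed by -0.12 and Nadk2, the mitochondrial NAD kinase gene, by 0.12. Tob2, an adaptor of the CCR4-NOT deadenylase, read 8.42 and 8.37 against 7.95 and 7.92, 1.37-fold lower (limma adjusted p = 0.811). Its relative Tob1 read 11.27 and 11.17 against 10.93 and 11.02.

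Rows with the most similar pattern over the 4 rats were sought among 4143 other named rows with a mean of 4 or more, by Euclidean distance after centring each row on its own mean. The nearest to Noct were the gene of the leucine zipper protein GILZ, Tsc22d3, at a distance of 0.24 log2 units, the lysosomal channel gene Mcoln2 (0.24), the sterol hydroxylase gene Cyp27a1 (0.31) and the kinase gene Sgk1 (0.33). The nearest to Per1 were Arhgap27 (0.18), the acyl-CoA synthetase gene Acsbg1 (0.30), Hsd11b2, whose enzyme inactivates glucocorticoids (0.33), and the adaptor gene Apbb3 (0.36). Arhgap27 read 5.97 and 6.29 in the vehicle rats, against 7.23 and 7.41 in the aldosterone rats. The distance runs over the same 4 values for which Noct and Per1 were chosen, so rows with a like difference must come out near. Nothing further is read from their names.

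Genes listed as known to respond to corticosteroids were set beside Per1 and Noct. Of 20 listed, 14 were measured, with 11 positive and 3 negative differences and a median of 0.80. Limma with the constant prior called 0 of them and 0% of all rows. At an unadjusted p under 0.05 there were 7 of the 14, against 4.53% of all rows. The intensity trend, which called 0.108% of all rows, called 5, Sgk1, Tsc22d3, Fkbp5, Scnn1g and Hif3a, all higher. As this list was also chosen with earlier results of these data known, nothing is read from these counts. The differences of the list ran from -0.49 to 5.09. Scnn1g, a sodium channel subunit gene, read 2.05 and 2.03 against 6.65 and 7.61, a difference of 5.09 ± 0.35 (SE), and Fkbp5, a chaperone gene of steroid receptors, differed by 5.02 ± 0.71. Dusp1, a phosphatase gene, was the gene of the list whose groups lay apart in the lower direction, with a difference of -0.49 ± 0.18. Sgk1 differed by 1.95 ± 0.11 (SE) and Tsc22d3 by 2.35 ± 0.13, against 2.18 for Noct and 1.35 for Per1. Cebpb, a transcription factor gene, differed by 1.00 ± 0.22. Klf9, a steroid-induced factor gene that is also clock-controlled, read 7.36 and 7.32 against 8.22 and 7.42, with most of the difference in aldosterone rat 1. Of the receptors, Nr3c2 (mineralocorticoid) read 8.95 and 9.37 against 9.39 and 9.14, and Nr3c1 (glucocorticoid) 5.69 and 5.66 against 5.30 and 5.43. Hsd11b2 read 3.90 and 4.44 against 5.58 and 5.41, and Hsd11b1, the enzyme gene of the reverse reaction, stayed between 1.68 and 1.96.

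Per1 is also known as an early gene that responds to cAMP and calcium signals through CREB, and other genes of the early response were therefore listed. Of 26 listed, 24 were measured, with 21 negative and 3 positive differences and a median of -0.50. Both aldosterone rats lay below both vehicle rats in 12 of the 24, and the groups overlapped in the other 12. That order was found in 11.1% of all rows and in 18.7% of the rows with a mean of 4 or more. Limma called 0 with either prior, against 0% (constant) and 0.108% (intensity trend) of all rows. Of the 24, 8 were under an unadjusted p of 0.05, against 4.53% of all rows. The list was chosen with earlier results of these data known, so nothing is read from these counts. Atf3, a stress-induced factor gene, read 10.32 and 10.31 in the vehicle rats, against 8.89 and 9.15 in the aldosterone rats. Nr4a2, an orphan receptor gene, read 7.04 and 7.59 against 5.95 and 5.47, and Ier3, a survival-linked early gene, 8.16 and 7.83 against 6.49 and 7.01. Egr1 differed by -0.98 with an interval from -1.73 to -0.24, and Fos by -0.43 with an interval from -0.98 to 0.13. Crem, at a low level of 2.84 to 3.29 in the 4 rats, differed by 0.082 and Sik1 by -0.49, with intervals that held 0. A part of CREB in any of these differences was not tested.

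**Figure D5:**
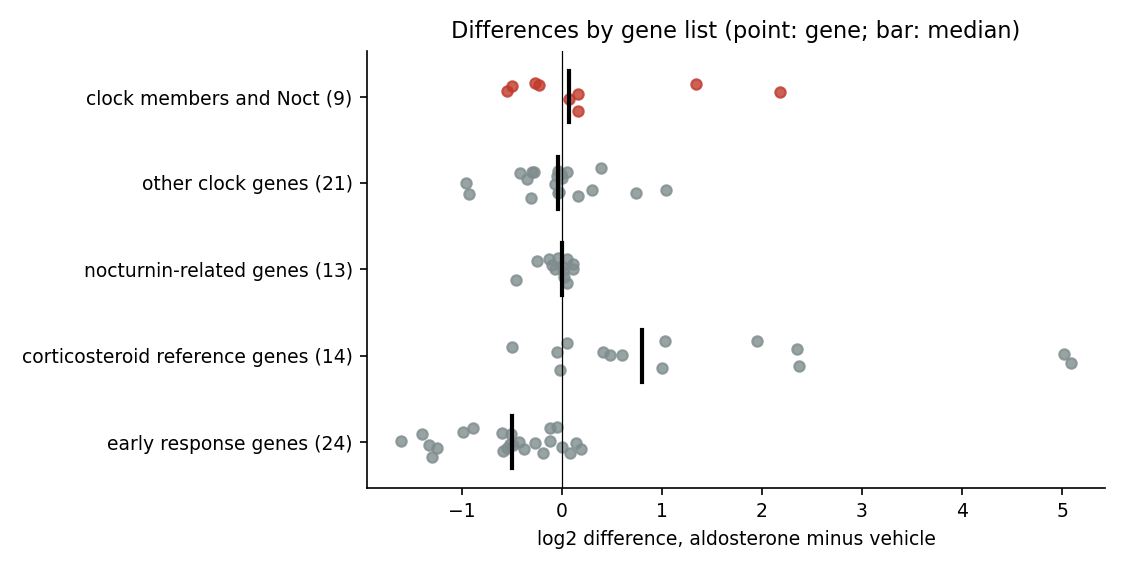
Log2 difference, aldosterone minus vehicle (horizontal axis), for every measured gene of 5 lists (points, spread vertically for visibility) with the median of each list (bar). Noct and Per1 are the red points at 2.18 and 1.35, the corticosteroid list has its median at 0.80 and the early response list at -0.50.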

How the data were processed

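RNA from surface colonocytes of 4 rats, 2 given aldosterone and 2 given vehicle, was hybridized to Affymetrix rat exon arrays, 1 per rat. The authors deposited log2 values per row. The submitters' processing notes name Partek, RMA and the Affymetrix Expression Console, without versions or order. The log2 scale was read from the range, 1.36 to 13.7. Of 19403 rows, 13327 had 1 gene symbol in the platform annotation, 620 several and 5456 none here. Symbols were matched through Entrez IDs to the RefSeq genes of GRCr8, and the older name Arntl was read as Bmal1. For a gene with several rows the one with the highest mean was used.

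Aldosterone was compared with vehicle over all rows with limma 3.58.1 in R 4.3.3 (lmFit, eBayes, constant prior, two-sided, treatment only). Benjamini-Hochberg adjustment ran over all rows, with a threshold of 0.05. Intervals are 95% intervals of this fit. The fit was also run on simulated data with independent noise for each array, unlike the split by rat number seen here. Its outcome is not given here and lends no weight to the results. Tables and plots used Python 3.11.15, pandas 2.3.3 and matplotlib 3.10.9. The number of arrays limits the precision, and no detection calls were used here. The labels call the arrays biological replicates, 1 rat each. The members, the lists of related genes and markers and the rule for named genes were chosen with earlier results of these data known. That rule took all measured members, genes fixed by name in each list, up to 3 to 5 further genes per list by smallest p, and the 4 rows nearest to Per1 and to Noct. Alternatives were other scalings, filters and priors, the replicate number as a block, and leaving out each array. The split by rat number was seen in the data and its scaling checks were added afterwards.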

Additional observations from a re-analysis of the deposited data

How the results depend on the processing

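Of the 15 alternatives, 9 leave the difference of a gene with 1 row as it is by construction, and leaving out a rat cannot turn the sign where the groups do not overlap. The 2 scalings gave 2.21 and 2.12 for Noct and 1.39 and 1.29 for Per1 (quantile, then centred). With each replicate left out in turn Noct ran from 1.95 to 2.41 and Per1 from 1.14 to 1.56. Of the 9 genes 5 had a positive difference, and 3 to 5 with a replicate left out (3 without vehicle replicate 1). Signs changed there for Per2, Per3, Cry1, Clock, Dbp and Bmal1, and Bmal1 also turned to 0.036 under quantile normalization. The 0 rows called by the constant prior became 1 with rows of a mean under 3 or below the median left out, 12 with rows under 4 left out and 21 with the intensity trend. The corticosteroid genes called went from 0 to 1, 1, 5 and 5 in the same order. With the replicate block 0 rows were called, and with the block and the intensity trend 6 rows and 4 corticosteroid genes. Leaving out a replicate called 0 in each list. The constant prior held 879 rows at an unadjusted p under 0.05 in the main setting and 1282 with the replicate block. Deviations of rats with the same number correlated at 0.148 over all rows and 0.093 over the rows whose mean reached 4, from 2 pairs only. The block took the standard error of the difference from 0.86 to 0.20 in Dbp and from 0.87 to 0.12 in Bmal1, the largest falls of the 11 genes compared. These falls follow from the split of both genes by that number and are no further support for it, and the labels do not pair the rats. In Noct the standard error went from 0.19 to 0.18, and in Nr1d1 from 0.150 to 0.156. No count of the other clock, nocturnin-related or early response genes called changed under any alternative.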

Other observations

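The split by rat number was not confined to clock genes. Among rows with a mean of 4 or more, 31 differed by 1 or more in the same direction in both groups, and 22 of them carry a gene name. They were listed after the split was seen, as a description with no test. Those higher in the rats numbered 2, beside Dbp, included the class II antigen presentation genes Cd74 (7.10 and 8.78 in the vehicle rats, 6.20 and 8.02 in the aldosterone rats) and RT1-DMa, the aquaglyceroporin gene Aqp7 (by 4.10 and 4.56) and the uroguanylin gene Guca2b (by 1.03 and 1.03). The 7 measured immune markers averaged 2.56 and 2.39 in the vehicle rats, against 2.45 and 2.70 in the aldosterone rats, and their part in the split of these genes was not tested. Those lower, beside Bmal1, included the mast cell protease gene Mcpt1 (5.29 and 2.90 in the vehicle rats, 6.17 and 2.46 in the aldosterone rats). Given in the same order, they also included the amino acid transporter gene Slc7a5 (5.59 and 4.43, then 5.13 and 3.60), the folate cycle enzyme gene Mthfd2 (6.57 and 5.41, then 6.54 and 5.12), Chac1, a gene of the amino acid stress response (6.17 and 5.15, then 5.72 and 4.27), and the transferrin receptor gene Tfrc (5.30 and 4.10, then 5.59 and 4.27).

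The rows nearest to Dbp in pattern over the 4 rats, by the same Euclidean distance, were Slpi, a protease inhibitor gene (0.52), Cd74 (0.71) and Guca2b (0.77). The rows nearest to Bmal1 were Mthfd2 (0.49), the class I gene RT1-CE16 (0.53) and the glycosyltransferase gene Mgat4a (0.54). No clock gene was among the 4 nearest to either. These searches were added after the values were seen.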
